A study of Mus musculus with 25 samples.

Results

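The comparison covers mouse 2-cell embryos labelled IVF (in vitro fertilisation, 2 libraries) against 2-cell embryos labelled WT (2 libraries). Its members are all gene loci (a gene symbol with its position) with a mean of at least 1 FPKM over the 6 libraries of 2-cell embryos, which 8246 of 24708 loci reached. FPKM is a number of fragments scaled for transcript length and for the total of the library. Every embryo is labelled strain BDF1, a hybrid of the C57BL/6 and DBA/2 strains, and embryonic day 1.5. WT and IVF are entries of a genotype field, and the labels name no other allele, agent or treatment, no way in which WT embryos were conceived or cultured, and no number of embryos per library. A further group of 2 libraries, labelled sIVF without an explanation, shares the fit through its spread and is given beside IVF and WT. The series holds 25 samples, with blastocyst and fat libraries that have no part here. The labels do not say that the 2 libraries of a group came from separate cultures, so the p-values rest on differences between libraries that may be purely technical.

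The 2-cell embryo is the stage at which the mouse genome takes over from the egg. Most RNA inherited from the oocyte is cleared, a minor and then a major wave of embryonic transcription begins, and a set of genes that includes the Zscan4 family is transcribed for a short time. After in vitro fertilisation, sperm and egg meet in a dish, and the embryo spends its first divisions in culture medium in place of the oviduct.

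The libraries held 4742698 to 6377606 fragments, as implied by the deposited confidence bounds, and 10085 to 11860 loci above 0 FPKM. IVF replicate 1 was highest in both. Across loci, Pearson's r of the log2 values was 0.861 between the WT libraries, 0.879 between the IVF libraries and 0.839 to 0.875 between an IVF and a WT library, so the groups did not separate by overall likeness. No batch is labelled. The markers matched the stage. Of 8 genes that mark the 2-cell stage 7 were above 0 in all 4 IVF and WT libraries. The 8 summed to 131 and 84.5 FPKM in WT and 61.5 and 78.01 FPKM in IVF. All 8 of 8 oocyte genes were above 0 in all 4, some of them barely. Ooep, for example, was 7.34 FPKM in WT replicate 1 and 0.0692 FPKM in WT replicate 2. Of 23 cumulus and granulosa markers 16 were listed at 0 in all 4 libraries, among them Has2, Foxl2, Fshr and Cyp19a1, and their sum was 5.84 and 6.61 FPKM in WT and 9.44 and 8.05 FPKM in IVF. Sperm markers summed to 15.7 and 7.40 FPKM in WT and 12.8 and 13.4 FPKM in IVF, with 8 of 16 at 0 in all 4, among them Prm1, Tnp2 and Smcp. Prm2, Tnp1, Odf1, Akap4 and Gapdhs were at 0 in both WT libraries and above 0 in IVF replicate 1, at 0.0425 to 1.78 FPKM, and Pgk2 was at 0 in both IVF libraries and at 6.79 and 2.73 FPKM in WT. Their part in the results was not tested. Of 11 oviduct and epithelial markers the adhesion gene Epcam made up nearly all of the sum, at 85.7 and 107 FPKM in WT and 136 and 110 FPKM in IVF. The other 10 of that list reached at most 3.01 FPKM, and Foxj1 was at 0. Of 13 blood and endothelial markers 9 were at 0, among them Ptprc and Cdh5. Hba-a1 stood at 1.12 and 2.67e-05 FPKM in WT and 4.68 and 4.07 FPKM in IVF. Hba-a2 reached 4.97 FPKM in WT replicate 2, and Pecam1 reached 3.24 FPKM in WT replicate 1. Blastocyst lineage markers summed to 17.5 and 16.3 FPKM in WT and 9.96 and 5.68 FPKM in IVF, with Sox17 and Gata6 at 0. Fgf4 stood at 9.07 and 7.35 FPKM in WT and 2.93 and 2.61 FPKM in IVF. Nanog reached 6.07 FPKM in WT replicate 2, and Dab2 reached 4.12 FPKM in WT replicate 1.

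The promoters of 5 genes are shown because these genes carry the main groups of differences described below. They are those of Hypk, the histone genes H2afj and Hist1h2ag, and the endoplasmic reticulum (ER) genes Creld2 and Insig1. Each is the 250 bases before the start of the gene, from RefSeq (GRCm38.p6), which is a later build than that of the deposited loci. RefSeq names H2afj H2aj and Hist1h2ag H2ac11. Capitals mark motifs that were searched on either strand. The first is CCAAT, which reads ATTGG on the other strand. The next is GGGCGG, known as the GC box. The third is CACGTG, known as the E-box. The fourth is TGACGTCA. The last is the ER stress response element, in which the CCAAT box is followed after a spacer of 9 bases by the letters CCACG.
Hypk, chr2:121456838-121457087, plus strand: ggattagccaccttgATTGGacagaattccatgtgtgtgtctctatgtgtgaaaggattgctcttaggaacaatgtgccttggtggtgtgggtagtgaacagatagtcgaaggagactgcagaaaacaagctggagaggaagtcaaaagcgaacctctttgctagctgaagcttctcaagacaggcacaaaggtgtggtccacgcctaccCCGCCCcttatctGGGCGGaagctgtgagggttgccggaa
H2afj, chr6:136807998-136808247, plus strand: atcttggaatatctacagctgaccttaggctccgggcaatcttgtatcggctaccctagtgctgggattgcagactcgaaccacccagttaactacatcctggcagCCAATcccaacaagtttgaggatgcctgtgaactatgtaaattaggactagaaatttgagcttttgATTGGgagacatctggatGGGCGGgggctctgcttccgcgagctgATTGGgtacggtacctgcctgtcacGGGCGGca
Hist1h2ag, chr13:22042950-22043199, minus strand: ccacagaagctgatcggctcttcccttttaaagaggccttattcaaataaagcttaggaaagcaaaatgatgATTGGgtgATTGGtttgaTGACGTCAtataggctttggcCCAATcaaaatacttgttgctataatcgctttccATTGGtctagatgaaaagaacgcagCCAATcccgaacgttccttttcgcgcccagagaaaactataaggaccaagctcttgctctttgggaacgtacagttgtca
Creld2, chr15:88819396-88819645, plus strand: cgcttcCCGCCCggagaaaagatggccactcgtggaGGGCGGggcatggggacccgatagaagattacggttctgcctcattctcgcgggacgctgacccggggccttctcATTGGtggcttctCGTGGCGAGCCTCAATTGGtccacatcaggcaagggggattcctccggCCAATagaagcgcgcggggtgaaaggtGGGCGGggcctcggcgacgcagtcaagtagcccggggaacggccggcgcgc
Insig1, chr5:28071162-28071411, plus strand: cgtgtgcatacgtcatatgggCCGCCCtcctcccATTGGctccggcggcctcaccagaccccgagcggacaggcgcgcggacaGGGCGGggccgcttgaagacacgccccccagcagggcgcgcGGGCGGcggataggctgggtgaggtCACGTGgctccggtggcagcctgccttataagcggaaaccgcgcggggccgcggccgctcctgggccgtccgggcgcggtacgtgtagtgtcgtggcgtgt
CCAAT, the box bound by NF-Y and common in histone promoters, stood at 5 places before Hist1h2ag, at 3 before H2afj, at 3 before Creld2 and at 1 before Hypk and Insig1. The ER stress response element, which overlaps a CCAAT box, stood once before Creld2. CACGTG stood once before Insig1, and TGACGTCA, known as the cAMP response element, once before Hist1h2ag. Of the 20 symbols that passed with a filter of 5 FPKM (below) 17 had a promoter that could be searched. CCAAT was held by 7 of the 17, GGGCGG by 15, CACGTG by 3, TGACGTCA by 2 and the ER stress response element by 1. Among the 6606 genes tested that had a promoter the shares were 42.4%, 63.0%, 10.4%, 3.45% and 0.257%, and among all 32851 promoters 33.8%, 32.7%, 6.02%, 1.55% and 0.113%. TATAAA was held by 0 of the 17, by 8.25% of the genes tested and by 12.4% of all promoters.

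Hypk rose in IVF, and it was the only locus of 8246 that passed the test (limma on log2(FPKM + 1), Benjamini-Hochberg adjusted p under 0.05), which is 0.0121% of the loci in the higher direction and 0% in the lower. With a filter of 5 FPKM, 12 of 4625 loci (0.259%) passed as higher and 9 (0.195%) as lower, and with upper-quartile scaling at the 1 FPKM filter 17 loci passed as higher and 4 as lower. Each setting called 21 loci, of which 16 passed under both. The 21 loci that passed with the filter of 5 FPKM are described below as higher or lower in IVF, and their adjusted p under that filter is named as such. All 21 kept their direction when any 1 of the 6 libraries was left out. At each of them both IVF libraries lay beyond both WT libraries, so leaving out 1 library could not reverse the direction. At an unadjusted p under 0.05 stood 1024 loci (12.4%), 566 higher (6.86%) and 458 lower (5.55%), and without WT replicate 2 678 loci. Both IVF libraries lay above both WT libraries at 1881 loci (22.8%) and below both at 1595 (19.3%). With 2 libraries a side, an exact permutation test of 1 gene cannot give a two-sided p below 0.333.

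**Figure D1:**
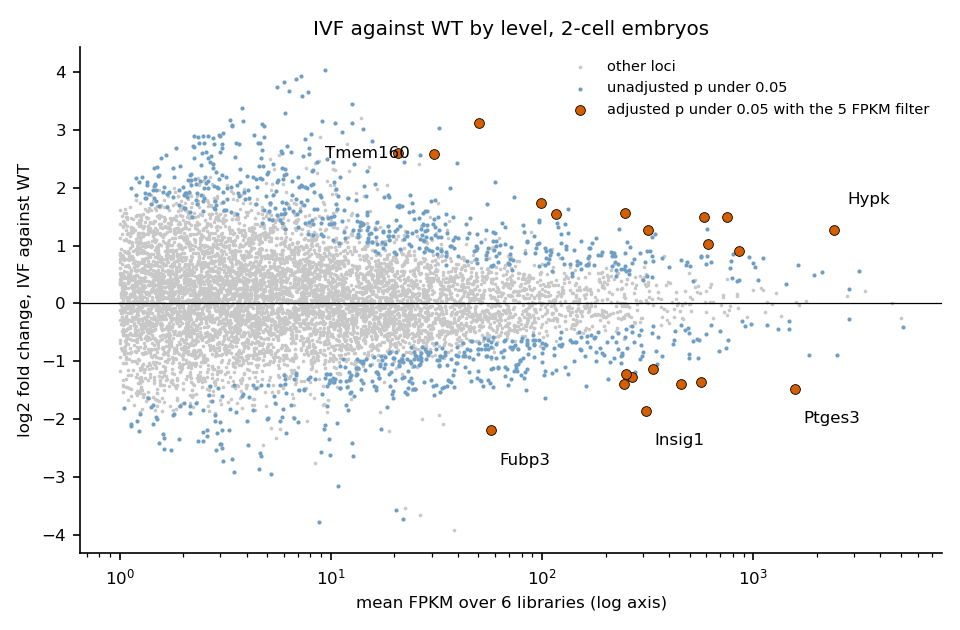
Log2 fold change of IVF against WT (vertical axis) against mean FPKM over 6 libraries (horizontal, log axis) for 8246 loci, with loci at an unadjusted p under 0.05 in blue and the 21 loci that passed with a filter of 5 FPKM in orange. Hypk, at a log2 fold change of 1.28, has the highest level of the 12 that were higher, and Ptges3 of the 9 that were lower.

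Hypk encodes a small chaperone-like partner of NatA, the enzyme that acetylates the N-termini of many new proteins at the ribosome. It lies on chromosome 2 from 121282824 to 121284176 (mm9). Its level was 1618 and 1562 FPKM in WT, 1948 and 1656 FPKM in sIVF and 3741 and 3969 FPKM in IVF. Both IVF libraries stood far above the other 4, which lay close together. The mean was 3855 ± 161 FPKM for IVF (SD, n = 2) against 1590.01 ± 39.4 FPKM for WT (SD, n = 2), and limma gave the difference as 1.28 on the log2 scale (SE 0.12, adjusted p = 0.0259). The call held in 6 of 18 alternatives and in none of the fits without 1 library, where the adjusted p ran from 0.248 to 0.513. The next locus, Serinc4, lies 323 bases away and was at most 0.0344 FPKM in any library, and Serf2, which lies 3667 bases away, was 91.1 and 76.8 FPKM in WT and 163 and 108 FPKM in IVF (log2 fold change 0.66, limma adjusted p = 0.356). Of 16 measured N-terminal acetyltransferase and methionine aminopeptidase genes Hypk was the 1 that passed, and the other 15 did not. The myristoyltransferase gene Nmt1 had the next smallest p, at 1.72 and 0.504 FPKM in WT and 10.7 and 13.99 FPKM in IVF (limma adjusted p = 0.132). The list's median log2 fold change was -0.03 against 0.09 over all loci, and its sign changed between alternatives.

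Among histone and chromatin genes, 3 of the loci higher in IVF with the filter of 5 FPKM carry H2A genes of the histone cluster on chromosome 13, 1 is the replacement histone gene H2afj and 1 is Hmgn2. H2afj, an H2A variant gene outside the clusters on chromosome 6, was 151 and 133 FPKM in WT, 176 and 177 FPKM in sIVF and 436 and 402 FPKM in IVF. The IVF libraries stood above the other 4 (chromosome 6 from 136756769 to 136758595 in mm9, log2 fold change 1.55, SE 0.18, limma adjusted p = 0.0584, and 0.0306 with the filter of 5 FPKM). Hist1h2ag was 53.99 and 50.1 FPKM in WT, 55.9 and 80.8 FPKM in sIVF and 158 and 196 FPKM in IVF (log2 fold change 1.74, SE 0.26). Hist1h2ao is listed at 2 loci, each overlapping Hist1h2ap, and these near-identical copies cannot be told apart from each other. At the locus of higher level it stood at 481 and 401 FPKM in WT, 487 and 654 FPKM in sIVF and 1335 and 1165 FPKM in IVF, and both loci had a log2 fold change of 1.50. Replication-dependent histone genes are transcribed in S phase. Of 25 measured, 9 lay wholly above WT (36%, against 22.8% of all loci) and 2 wholly below (8%, against 19.3%). The median log2 fold change of replication-dependent histones was 0.51 (all loci 0.09), but it moved with single libraries and the filter, to 0.06 without WT replicate 2, 1.31 without WT replicate 1, 1.03 without IVF replicate 2 and 1.54 with the filter of 5 FPKM. Hist1h2ac, named after its values were seen, was 14.2 and 15.99 FPKM in WT and 41.7 and 52.4 FPKM in IVF (limma adjusted p = 0.132). Other members stood lower, such as Hist2h2aa1, at 5.81 and 23.4 FPKM in WT and 1.69 and 1.77 FPKM in IVF.

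Replacement histones enter chromatin outside S phase. Of 10 measured genes 4 lay above WT (40%, against 22.8% of all loci) and 1 below (10%, against 19.3%). H2afv, the H2A.Z.2 gene, was 261 and 204 FPKM in WT and 458 and 407 FPKM in IVF (log2 fold change 0.90, limma adjusted p = 0.121), while the H3.3 gene H3f3b was 1420.3 and 1524 FPKM in WT and 1156 and 1215 FPKM in IVF (-0.31, adjusted p = 0.338). Hmgn2, which encodes a nucleosome-binding protein, was 575 and 637 FPKM in WT, 832 and 813 FPKM in sIVF and 1121 and 1158 FPKM in IVF (chromosome 4 from 133520654 to 133523906 in mm9, log2 fold change 0.91, SE 0.13). Its sIVF libraries lay between the other groups. Ptma, which encodes prothymosin alpha, an acidic nuclear protein that binds histone H1, was lower in IVF. It stood at 321 and 319.6 FPKM in WT, 352 and 349 FPKM in sIVF and 125 and 140.4 FPKM in IVF (chromosome 1 from 88423311 to 88427273 in mm9, log2 fold change -1.27, SE 0.17, limma adjusted p = 0.0584, and 0.0306 with the filter of 5 FPKM). Among 27 measured high mobility group and histone chaperone genes 8 lay above WT (29.6%) and 6 below (22.2%), with a median of 0.03.

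Genes of the endoplasmic reticulum differed in both directions. Creld2, which encodes an ER protein induced by ER stress, was 61.8 and 59.6 FPKM in WT, 91.5 and 131 FPKM in sIVF and 178 and 180.2 FPKM in IVF. IVF exceeded WT by 1.55 on the log2 scale (chromosome 15 from 88650076 to 88657111 in mm9, SE 0.24, limma adjusted p = 0.0767, and 0.0482 with the filter of 5 FPKM), and sIVF lay between them. Dnajb9, an ER co-chaperone gene that is also induced by ER stress, was lower, at 323 and 268 FPKM in WT, 349.98 and 312 FPKM in sIVF and 115 and 136 FPKM in IVF (chromosome 12 from 45306884 to 45311055 in mm9, log2 fold change -1.23, SE 0.19). The ER stress and integrated stress response list holds neither of these. Of its 25 measured genes 0 passed, 7 lay above WT (28%, against 22.8% of all loci) and 2 below (8%, against 19.3%). The list's median log2 fold change was 0.38, with a range of 0.17 (without IVF replicate 1) to 0.51 (upper-quartile scaling). Sdf2l1, an ER chaperone partner, stood at 20.5 and 23.3 FPKM in WT and 79.4 and 42.4 FPKM in IVF (limma adjusted p = 0.204), and the haem-regulated kinase gene Eif2ak1 at 6.19 and 0.237 FPKM in WT and 12.7 and 10.1 FPKM in IVF (0.374). A locus that joins Emc8, a subunit of the ER membrane insertion complex, with 1190005I06Rik was 6.90 and 11.7 FPKM in WT and 60.6 and 58.1 FPKM in IVF, and it overlaps the loci of both genes.

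Insig1 encodes the ER anchor that holds SREBP, the activator of sterol synthesis genes, and it is itself an SREBP target. It was 388 and 483 FPKM in WT, 349 and 398 FPKM in sIVF and 94.03 and 151 FPKM in IVF. The lowest of the other 4 libraries stood above both IVF libraries (chromosome 5 from 28397952 to 28405202 in mm9, log2 fold change -1.85, SE 0.25, limma adjusted p = 0.0584, and 0.0306 with the filter of 5 FPKM). Of 21 measured genes of sterol synthesis and SREBP control 0 passed at the filter of 1 FPKM. Wholly below WT lay 5 (23.8%, against 19.3% of all loci) and wholly above 3 (14.3%, against 22.8%). The list's median was -0.18 with a change of sign between alternatives. The prenyl synthase gene Ggps1 was 16.97 and 13.9 FPKM in WT and 10.04 and 7.52 FPKM in IVF (limma adjusted p = 0.510). Vapa, which encodes an ER protein of membrane contact sites, was 553 and 614 FPKM in WT, 574 and 531 FPKM in sIVF and 177 and 275 FPKM in IVF (chromosome 17 from 65929393 to 65962895 in mm9, log2 fold change -1.39, SE 0.22). Ptges3, the Hsp90 co-chaperone p23, was 1886 and 2246 FPKM in WT, 1929 and 1835 FPKM in sIVF and 584 and 937 FPKM in IVF (chromosome 10 from 127496038 to 127514310 in mm9, log2 fold change -1.47, SE 0.21). Of 45 measured heat shock and chaperone genes 8 lay above WT (17.8%) and 13 below (28.9%), with a median of 0.08. Among them 2, Ptges3 and Dnajb9, passed as lower with the filter of 5 FPKM. In bulk embryos a lower level can mean fewer embryos with the RNA or less RNA per embryo, which cannot be told apart.

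Of the 9 loci that were lower 3 encode proteins that bind RNA or single-stranded DNA. Fubp3, a single-strand-binding KH protein gene, was 71.4 and 95.6 FPKM in WT, 71.4 and 70.97 FPKM in sIVF and 14.5 and 20.7 FPKM in IVF (chromosome 2 from 31428171 to 31473046 in mm9, log2 fold change -2.19, SE 0.30, limma adjusted p = 0.0584, and 0.0306 with the filter of 5 FPKM). The sIVF libraries stood at the lower edge of the WT range, and the locus overlaps Mir6998. Myef2 was 681 and 797 FPKM in WT, 629 and 699 FPKM in sIVF and 246 and 331 FPKM in IVF (log2 fold change -1.37, SE 0.18), at a locus that overlaps Slc24a5. Ythdf2, the m6A reader that takes marked maternal RNA to decay, was 369 and 421 FPKM in WT, 426 and 442 FPKM in sIVF and 162 and 199.6 FPKM in IVF (chromosome 4 from 131740831 to 131768171 in mm9, log2 fold change -1.13, SE 0.18). Its relative Ythdf3 stood at 24.4 and 26.7 FPKM in WT and 12.8 and 5.47 FPKM in IVF (limma adjusted p = 0.254). Of 31 measured genes that store or clear maternal mRNA 12 lay wholly below WT and 6 wholly above, shares of 38.7% and 19.4% against 19.3% and 22.8% of all loci, and the median was 0.03. Larp4, which binds poly(A) tails, was 217 and 211 FPKM in WT and 64.2 and 96.98 FPKM in IVF and had an adjusted p of 0.0521 with the filter of 5 FPKM in limma.

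Of 64 measured initiation and elongation factor genes 0 passed, 20 lay wholly below WT (31.2%, against 19.3% of all loci) and 14 wholly above (21.9%, against 22.8%). The median was -0.12, with a change of sign between alternatives. The helicase gene Eif4a1 was 101 and 104 FPKM in WT, 100.5 and 105 FPKM in sIVF and 43.6 and 39.2 FPKM in IVF (log2 fold change -1.29, SE 0.23, limma adjusted p = 0.0953). Paip1, a partner of the poly(A)-binding protein, was 612 and 745 FPKM in WT and 323 and 379 FPKM in IVF (-0.95, SE 0.17, adjusted p = 0.0953). Other factors named after their values were seen were the cap-binding gene Eif4e at 246 and 239 FPKM in WT and 158 and 148 FPKM in IVF and Eif2a at 56.9 and 46.3 FPKM in WT and 19.5 and 17.2 FPKM in IVF. Neither pair of groups overlapped, and the limma adjusted p was 0.172 and 0.157. The 80 measured cytosolic ribosomal protein genes summed to 29105 and 28282 FPKM in WT and 34974 and 33678 FPKM in IVF. Of them 32 lay wholly above WT (40%, against 22.8% of all loci) and 15 wholly below (18.8%, against 19.3%). At an unadjusted p under 0.05 in limma 22 were higher and 9 lower. Loci of 100 FPKM and over reached that p more often than all loci did (38.6% against 12.4%). The part of level in the shares of this list and of the initiation and elongation factors was not tested. The median was 0.14 against 0.09 over all loci and ran from 0.06 (length trend removed) to 0.32 (upper-quartile scaling). The small-subunit gene Rps29 stood at 1859 and 1804 FPKM in WT and 2519.7 and 2812 FPKM in IVF (adjusted p = 0.121). Rpl39 ran the other way, at 448 and 351 FPKM in WT, 274 and 299 FPKM in sIVF and 223 and 199 FPKM in IVF (-0.91, SE 0.19, adjusted p = 0.121), as did Rps24, at 219 and 262 FPKM in WT and 136 and 143 FPKM in IVF (0.157). Processed copies of ribosomal protein genes are common, so these values are uncertain where copies share reads.

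Of 80 measured members of the ribosome biogenesis list 28 lay above WT (35%) and 18 below (22.5%), with a median of 0.10. Imp3, a part of the small-subunit processome, was 163 and 172 FPKM in WT and 375 and 294 FPKM in IVF (limma adjusted p = 0.113), and Taf1d, a factor of RNA polymerase I, 85.9 and 78.03 FPKM in WT and 34.99 and 36.7 FPKM in IVF (0.121), at a locus that overlaps others. Among 76 mitochondrial ribosomal protein genes 17 lay above WT and 13 below, shares of 22.4% and 17.1% that are near those of all loci (median 0.25), and the 2 of smallest p, Mrps28 and Mrpl2, had an adjusted p of 0.190 and 0.202 in limma. Of 60 spliceosome and SR protein genes 20 lay above (33.3%, against 22.8% of all loci) and 13 below (21.7%, against 19.3%), with a median of 0.21. The splicing factor gene Sf3b5, a locus of 734 bases, was 183 and 239.95 FPKM in WT, 379 and 278 FPKM in sIVF and 493 and 478 FPKM in IVF (log2 fold change 1.21, SE 0.21, limma adjusted p = 0.0953), and it passed with upper-quartile scaling (0.0467). Among 58 genes of the transcription machinery 14 lay above (24.1%) and 16 below (27.6%). The shared polymerase subunit gene Polr2e stood at 175 and 173 FPKM in WT and 319 and 315 FPKM in IVF, and the elongin C gene Tceb1 at 332 and 338 FPKM in WT and 197 and 223 FPKM in IVF (limma adjusted p = 0.121 and 0.157).

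Respiratory chain genes lay above WT more often than below. Ndufa2, a complex I subunit gene, was 451 and 377 FPKM in WT, 640.3 and 539 FPKM in sIVF and 805 and 872 FPKM in IVF. The groups did not overlap, and sIVF lay between them, at a locus that overlaps Tmco6 (log2 fold change 1.02, SE 0.16, limma adjusted p = 0.0767, and 0.0482 with the filter of 5 FPKM). Ndufa13, of the same complex, was 65.2 and 50.1 FPKM in WT and 151 and 164 FPKM in IVF (log2 fold change 1.45, limma adjusted p = 0.0856, and 0.0467 with upper-quartile scaling). The 82 measured subunits of oxidative phosphorylation summed to 11495 and 10412 FPKM in WT and 15361 and 14081 FPKM in IVF. Of them 25 lay wholly above WT (30.5%) and 12 wholly below (14.6%), against 22.8% and 19.3% of all loci. At an unadjusted p under 0.05 in limma were 16 higher and 5 lower. Loci of 100 FPKM and over reached that p more often than all loci did (38.6% against 12.4%), and the part of level here was not tested. The ATP synthase gene Atp5g1 was 1212 and 1373 FPKM in WT and 2119 and 1952 FPKM in IVF, and the cytochrome oxidase gene Cox8a 462 and 308 FPKM in WT and 1131 and 754 FPKM in IVF (limma adjusted p = 0.0961 and 0.111). Cytochrome c, which the apoptosis list also holds, stood lower, with Cycs at 99.6 and 106 FPKM in WT and 54.4 and 65.96 FPKM in IVF (adjusted p = 0.231). The list's median was 0.17 and ran from 0.10 (length trend removed) to 0.35 (upper-quartile scaling). Its loci are short, with a median span of 6828 bases against 19632 over all loci.

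The remaining loci that passed with the filter of 5 FPKM have other functions. Mif, a secreted cytokine gene, was 226 and 202 FPKM in WT, 242 and 218 FPKM in sIVF and 491 and 536 FPKM in IVF (chromosome 10 from 75322098 to 75322995 in mm9, log2 fold change 1.26, SE 0.17, limma adjusted p = 0.0584, and 0.0306 with that filter). Tmem160, a mitochondrial membrane protein gene, was 6.38 and 7.18 FPKM in WT, 9.95 and 8.96 FPKM in sIVF and 47.1 and 45.7 FPKM in IVF (chromosome 7 from 17038128 to 17040839 in mm9, log2 fold change 2.61, SE 0.37). The clone-named locus 1500011B03Rik had the largest fold change of the 21, at 16.2 and 6.41 FPKM in WT, 36.6 and 50.1 FPKM in sIVF and 101 and 92.7 FPKM in IVF. Actb, the cytoplasmic beta-actin gene, was lower, at 255 and 313 FPKM in WT, 351 and 337 FPKM in sIVF and 95.96 and 119.7 FPKM in IVF (chromosome 5 from 143664796 to 143668433 in mm9, log2 fold change -1.39, SE 0.20, limma adjusted p = 0.0588). It was 1 of 35 measured cytoskeleton genes. Of these 5 lay above WT (14.3%, against 22.8% of all loci) and 9 below (25.7%, against 19.3%). Tmsb10, which binds actin monomers, stood at 706 and 677 FPKM in WT and 1094 and 1019 FPKM in IVF. At all 21 loci both IVF libraries lay beyond both sIVF libraries, and at 11 both sIVF libraries lay between IVF and WT. The median span of the 12 loci that were higher was 2042 bases and that of the 9 that were lower 18273 bases.

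**Figure D2:**
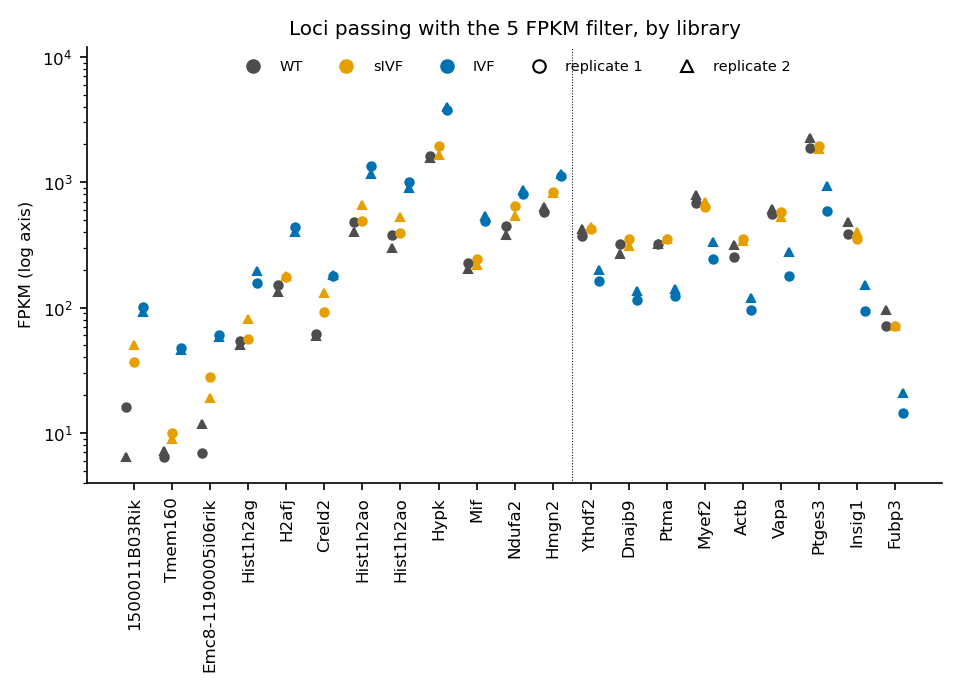
FPKM (vertical, log axis) in each of the 6 libraries for the 21 loci that passed with a filter of 5 FPKM, ordered by log2 fold change with a dotted line between higher and lower; circles are replicate 1 and triangles replicate 2. At each of the 21 loci both IVF libraries lie beyond both WT and both sIVF libraries. The loci were chosen by the p of IVF against WT, in a fit that shared the spread of sIVF. The separation follows in part from that choice.

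The largest differences among loci that reached 20 FPKM in the higher group and did not overlap were at low or variable levels, and apart from those already described none passed at either filter. Higher in IVF were Ecsit, a complex I assembly and signalling gene, at 3.03 and 0.894 FPKM in WT and 19.1 and 21.003 FPKM in IVF, and Fam178b at 2.51 and 1.91 FPKM in WT and 36.9 and 16.7 FPKM in IVF (limma adjusted p = 0.152 and 0.0865). Znhit2 stood at 1.23 and 0 FPKM in WT and 37.8 and 5.89 FPKM in IVF, Lin37 at 22.1 and 0.176 FPKM in WT and 38.1 and 45.5 FPKM in IVF, Yif1b at 8.12 and 0.299 FPKM in WT and 39.2 and 13.3 FPKM in IVF, and Cst3, which encodes cystatin C, at 7.18 and 0.397 FPKM in WT and 12.99 and 36.3 FPKM in IVF. At all 4 the WT libraries differed by several fold or more between replicates, and the IVF libraries of Znhit2, Yif1b and Cst3 also differed widely. Lower in IVF was Amd1, a decarboxylase gene of polyamine synthesis, at 26.7 and 46.2 FPKM in WT and 0.0205 and 8.05 FPKM in IVF (limma adjusted p = 0.192). Amd1 overlaps its near copy Amd2 and is uncertain. Btg3, an anti-proliferative gene, is listed at 2 loci. At 1 of them it stood at 16.5 and 28.4 FPKM in WT and 0.217 and 1.23 FPKM in IVF (log2 fold change -3.78, limma adjusted p = 0.160). That locus overlaps Gm7334, which ran the other way, at 3.59 and 1.5e-05 FPKM in WT and 15.97 and 19.5 FPKM in IVF (log2 fold change 3.12), and at the other locus the log2 fold change of Btg3 was -0.87, so its value is uncertain. Sdhd, a succinate dehydrogenase subunit gene, was 20.4 and 25.05 FPKM in WT and 13.3 and 0 FPKM in IVF, and Ly96, a Toll-like receptor partner, 13.8 and 45.9 FPKM in WT and 11.3 and 4.84 FPKM in IVF. Hspa2, a heat shock protein gene, stood at 28.1 and 36.2 FPKM in WT, 17.2 and 12.02 FPKM in sIVF and 7.08 and 10.3 FPKM in IVF (adjusted p = 0.144). The homeobox gene Hesx1 stood at 30.2 and 33.3 FPKM in WT and 8.89 and 2.79 FPKM in IVF and is listed at 0 in both sIVF libraries.

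Genes of the 2-cell stage had the lowest median of the 38 lists with at least 5 measured members. Of 42 measured members 0 passed, 17 lay wholly below WT (40.5%, against 19.3% of all loci) and 4 wholly above (9.52%, against 22.8%). The median log2 fold change was -0.58 and ran from -0.79 (without WT replicate 2) to -0.37 (without IVF replicate 2). The summed level of the list overlapped, at 1124 and 935 FPKM in WT and 1035 and 813 FPKM in IVF. Earlier results of these libraries were known when the list was written, so it is not independent evidence of a direction. Ubtfl1 was 41.9 and 42.7 FPKM in WT, 23.9 and 40.7 FPKM in sIVF and 21.2 and 20.7 FPKM in IVF (log2 fold change -0.98, SE 0.34, limma adjusted p = 0.317). D5Ertd577e stood at 13.3 and 19.998 FPKM in WT and 7.61 and 5.78 FPKM in IVF (0.327), and Zscan4f, of a gene family that marks this stage, at 17.3 and 12.4 FPKM in WT and 3.86 and 7.33 FPKM in IVF (0.353). Many members are copies of 1 family (Zscan4, Usp17l, Tdpoz, Gm-numbered genes) whose reads may not be told apart, so the 42 are fewer independent values than their number. Of 22 measured early embryonic transcription factor and signal genes 3 lay above WT (13.6%) and 4 below (18.2%). The factor gene Yy1 was 46.98 and 53.9 FPKM in WT and 20.03 and 19.1 FPKM in IVF (log2 fold change -1.32, adjusted p = 0.137).

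Of 26 measured oocyte growth and zona genes 7 lay wholly above WT (26.9%, against 22.8% of all loci) and 0 wholly below (against 19.3%). By fold change 18 were higher and 8 lower. The summed level of the list overlapped, at 7784 and 8738 FPKM in WT and 7480 and 8754 FPKM in IVF. The median was 0.22 against 0.09 over all loci and ran from 0.12 (without IVF replicate 1) to 0.41 (upper-quartile scaling) over the alternatives. Oas1d, an oocyte member of the oligoadenylate synthetase family, was 1.05 and 3.46 FPKM in WT and 14.1 and 11.6 FPKM in IVF. The kinase gene Mos, which holds the egg in meiosis, was 0 and 0.0555 FPKM in WT and 2.99 and 5.95 FPKM in IVF (limma adjusted p = 0.187 and 0.261). Gdf9, an oocyte growth factor gene named after its values were seen, was 7.02 and 1.16 FPKM in WT, 15.9 and 8.79 FPKM in sIVF and 15.3 and 15.6 FPKM in IVF. Among 26 maternal effect genes 7 lay above (26.9%) and 3 below (11.5%), with a median of 0.33. Their summed level, however, was 5644 and 5804 FPKM in WT and 4209 and 4633 FPKM in IVF, with Dppa3 the most abundant member. Dppa3, which protects the maternal genome from demethylation, was 5400.5 and 5611 FPKM in WT, 6020.3 and 5355 FPKM in sIVF and 3891 and 4379 FPKM in IVF (log2 fold change -0.42, SE 0.10, adjusted p = 0.157). Zar1l stood at 14.5 and 10.1 FPKM in WT and 3.35 and 5.83 FPKM in IVF (0.338).

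Each chromatin list held members wholly above and members wholly below WT. The shares above and below were 28.6% and 21.4% for DNA methylation and demethylation and 30.8% and 15.4% for H3K9 methylation and heterochromatin. They were 21.6% and 32.4% for polycomb and trithorax and 18.2% and 27.3% for imprinted genes. Over all loci they were 22.8% and 19.3%. Of 14 measured DNA methylation and demethylation genes 4 lay above WT and 3 below (median 0.33, from 0.15 to 0.65 over the alternatives). The methyl-binding gene Mbd3 was 4.51 and 8.46 FPKM in WT and 30.3 and 20.8 FPKM in IVF (limma adjusted p = 0.160). Of 26 genes of H3K9 methylation and heterochromatin 8 lay above and 4 below (median 0.31, from 0.16 to 0.49 over the alternatives). The heterochromatin protein genes differed, with Cbx3 at 2575 and 3272 FPKM in WT and 1229 and 1968 FPKM in IVF (log2 fold change -0.90, SE 0.21, adjusted p = 0.151) and Cbx1 at 6.02 and 6.93 FPKM in WT and 12.7 and 24.9 FPKM in IVF (1.34, SE 0.46, 0.304). Of 37 polycomb and trithorax genes 8 lay above and 12 below, and the 2 of smallest p were Dpy30, at 518 and 459 FPKM in WT and 701 and 867 FPKM in IVF, and the H3K27 demethylase gene Kdm6a, at 14.5 and 20.6 FPKM in WT and 4.18 and 7.31 FPKM in IVF. Among 22 autosomal imprinted genes 4 lay above and 6 below. Phlda2, a maternally expressed growth restrainer, stood at 252 and 200.02 FPKM in WT and 348 and 333 FPKM in IVF (adjusted p = 0.295).

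Cell cycle genes gave no call. Wholly above WT lay 31.0% of APC/C genes, 28.8% of cyclin, kinase and mitotic genes and 18.2% of replication genes, against 22.8% of all loci. Wholly below lay 17.2%, 13.5% and 14.5%, against 19.3%. Fzr1, the co-activator of the anaphase-promoting complex (APC/C) named in the title of the series, had the largest fold change of 29 measured APC/C genes, at 0.117 and 0.233 FPKM in WT, 0.239 and 2.00 FPKM in sIVF and 7.69 and 10.1 FPKM in IVF (log2 fold change 3.07, SE 0.72, limma adjusted p = 0.151). Of the 29, 9 lay above WT and 5 below, the subunit gene Anapc4 stood at 1.38 and 0.0277 FPKM in WT and 6.54 and 5.46 FPKM in IVF, and Anapc7, named after its values were seen, at 14.9 and 15.4 FPKM in WT and 30.1 and 26.005 FPKM in IVF. Among 52 cyclin, kinase and mitotic genes 15 lay above and 7 below. The passenger complex gene Cdca8 was 181 and 158 FPKM in WT, 256 and 270.4 FPKM in sIVF and 277 and 345 FPKM in IVF, and the securin gene Pttg1 1665 and 1655 FPKM in WT and 1159.8 and 1288 FPKM in IVF (adjusted p = 0.136 and 0.168). Of 55 replication genes 10 lay above and 8 below, with the licensing inhibitor Gmnn at 794 and 710.3 FPKM in WT and 1041 and 951 FPKM in IVF and the replication protein gene Rpa3 at 66.6 and 56.9 FPKM in WT and 33.8 and 17.95 FPKM in IVF.

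Stress and damage lists also held no passing gene. Shares wholly above and below WT were 23.4% and 14.9% for DNA damage, 11.5% and 19.2% for p53 targets and 20% and 32% for apoptosis. They were 11.1% and 22.2% for early response genes and 20.6% and 23.5% for antioxidant genes. Over all loci they were 22.8% and 19.3%. Of 47 DNA damage genes 11 lay above WT and 7 below, and none stood at an unadjusted p under 0.05. Parp2 was 11.6 and 3.55 FPKM in WT and 13.4 and 26.3 FPKM in IVF, and H2afx 0.141 and 0.299 FPKM in WT and 11.1 and 1.25 FPKM in IVF. Of 26 p53 targets 3 lay above and 5 below (median -0.19), the 2 of smallest p being Gadd45b at 7.99 and 2.15 FPKM in WT and 16.3 and 14.8 FPKM in IVF and the cell cycle inhibitor gene Cdkn1a at 15.7 and 16.7 FPKM in WT and 27.4 and 37.8 FPKM in IVF (limma adjusted p = 0.343 and 0.359). Of 25 apoptosis genes 5 lay above and 8 below, with the caspase inhibitor family gene Birc3 at 7.20 and 7.82 FPKM in WT and 15.02 and 24.98 FPKM in IVF. Of 9 early response genes 1 lay above and 2 below. The MAPK feedback inhibitor Spry2 was 398 and 392 FPKM in WT, 439 and 481 FPKM in sIVF and 158 and 232 FPKM in IVF (log2 fold change -1.04, SE 0.21, adjusted p = 0.121), and Btg1 23.9 and 42.04 FPKM in WT and 12.7 and 21.7 FPKM in IVF. Among 34 antioxidant genes 7 lay above and 8 below, and the 2 of smallest p ran apart, with the thioredoxin gene Txn1 at 1.17 and 0.165 FPKM in WT, 20.8 and 8.32 FPKM in sIVF and 7.99 and 9.07 FPKM in IVF and the quinone reductase gene Nqo1 at 8.20 and 2.76 FPKM in WT and 0.0421 and 0.609 FPKM in IVF.

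Metabolic lists outside the respiratory chain held no gene that passed at the filter of 1 FPKM. Of 37 genes of glycolysis, pyruvate and the TCA cycle 12 lay above WT (32.4%, against 22.8% of all loci) and 3 below (8.11%, against 19.3%), with a median of 0.28 that changed sign between alternatives. Malic enzyme gene Me2 stood at 2.29 and 0.819 FPKM in WT, 8.80 and 5.96 FPKM in sIVF and 14.9 and 14.6 FPKM in IVF, and the triose phosphate isomerase gene Tpi1 at 0 and 0.0985 FPKM in WT and 5.63 and 6.15 FPKM in IVF (limma adjusted p = 0.121 and 0.171). Of 28 fatty acid and lipid droplet genes 2 lay above (7.14%) and 6 below (21.4%). Acsl4, a ligase for long fatty acids, was 99.7 and 143 FPKM in WT, 95.6 and 79.8 FPKM in sIVF and 35.2 and 50.04 FPKM in IVF (adjusted p = 0.121), and the authors' table marks its value in WT replicate 2 as failed. The lipid droplet coat gene Plin2 was 5.61 and 0.407 FPKM in WT and 11.8 and 6.87 FPKM in IVF. Of 22 one-carbon genes 7 lay above (31.8%) and 5 below (22.7%), and of 22 transporter genes 4 lay above (18.2%) and 4 below (18.2%). The zinc transporter genes were Slc39a7, at 1.01 and 0.0359 FPKM in WT and 5.17 and 6.18 FPKM in IVF, and Slc39a1, at 107 and 123 FPKM in WT and 79.6 and 68.9 FPKM in IVF. Of 33 autophagy and lysosome genes 8 lay above (24.2%) and 5 below (15.2%). The lysosomal membrane gene Lamp2 was 128 and 122 FPKM in WT, 56.03 and 67.1 FPKM in sIVF and 57.03 and 47.9 FPKM in IVF (log2 fold change -1.24, SE 0.24, adjusted p = 0.121), and the conjugating enzyme gene Atg3 26.3 and 47.9 FPKM in WT and 99.3 and 82.996 FPKM in IVF. Of 48 proteasome genes 14 lay above (29.2%) and 11 below (22.9%). The catalytic subunit gene Psmb6 stood at 143 and 99.4 FPKM in WT and 247 and 217 FPKM in IVF, and the assembly factor gene Psmg4 at 3.47 and 9.65 FPKM in WT and 25.4 and 62.8 FPKM in IVF.

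**Figure D3:**
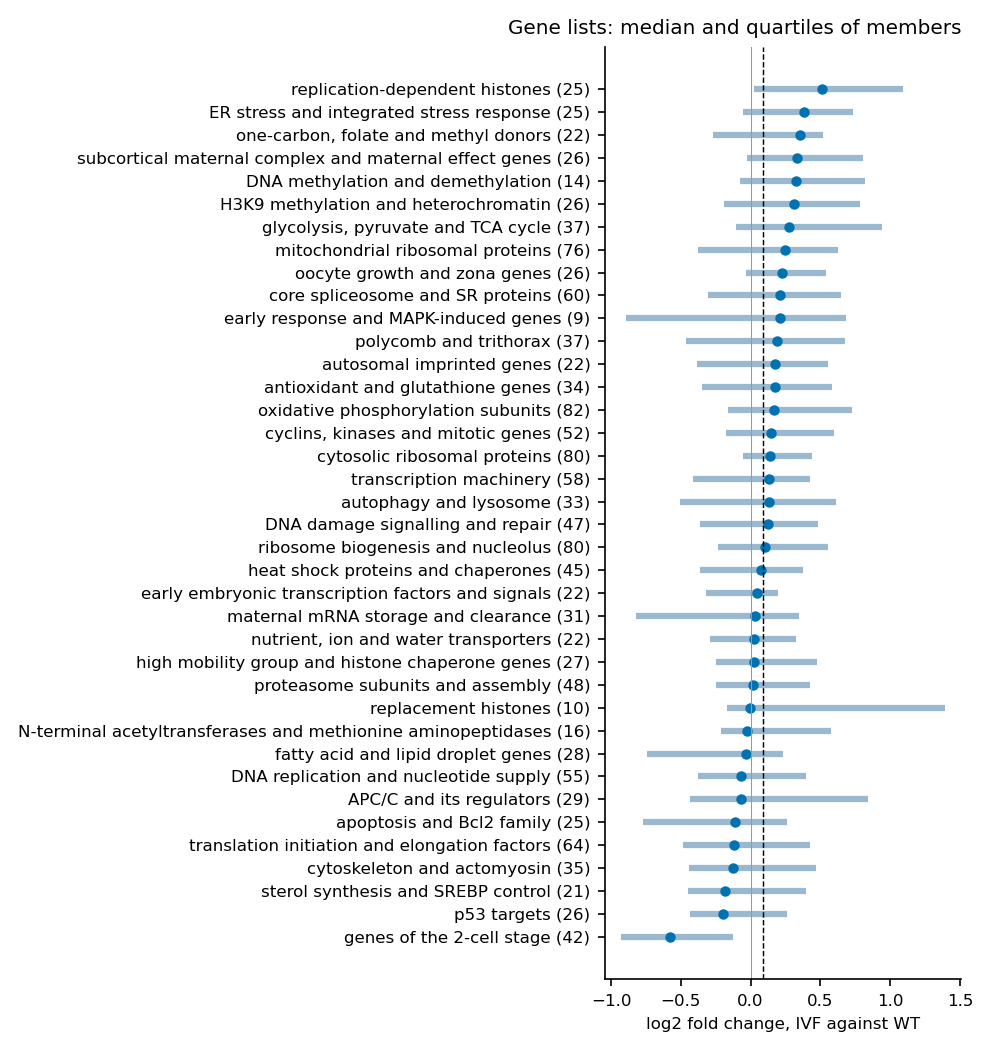
Median (point) and quartiles (bar) of the members' log2 fold change of IVF against WT for 38 gene lists with at least 5 measured members, whose number stands in brackets; the dashed line is the median of all 8246 loci (0.09). Genes of the 2-cell stage have the lowest median (-0.58) and replication-dependent histones the highest (0.51), a value that ran from 0.06 to 1.54 over the alternatives.

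Of the loci above 0 in 1 of the groups only, 9 were listed at 0 in both WT libraries and at 5 FPKM or more in both IVF libraries, and 1 the other way round. The 6 with a full name were the clathrin adaptor gene Ap2s1, Chchd7, the clock-linked gene Ciart, Hist2h2ac, Nanos3 and the tRNA phosphotransferase gene Trpt1. They stood between 5.47 and 26.2 FPKM in IVF. Each had a value above 0 in 1 or both sIVF libraries, for example 10.1 and 4.51 FPKM for Ciart. Zfp688 was listed at 0 in both IVF libraries and at 5.31 and 7.49 FPKM in WT. None passed (limma adjusted p of 0.0865 for Ciart and 0.157 for Zfp688). Over the tested loci, 494 and 678 were listed at 0 in the WT libraries, 575 and 520 in sIVF and 264 and 499 in IVF, and the library with fewest, IVF replicate 1, was the deepest. The part of depth in these loci was not tested.

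Of the 10 most abundant RNAs 1, Hypk, passed the test. Over IVF and WT the 10 loci of highest mean were Dppa3, Dppa5a, Omt2a, Rpl41, Omt2b, Cks2, Map1lc3b, Hypk, Calm2 and Cbx3. Dppa5a, a pluripotency-linked RNA-binding gene, was 4598 and 4169.98 FPKM in WT and 4239 and 4523 FPKM in IVF (log2 fold change 0.00, SE 0.09). The autophagy gene Map1lc3b was 2325 and 3011 FPKM in WT and 2573 and 3260.2 FPKM in IVF. The oocyte gene Omt2a was 4254 and 4896 FPKM in WT, 6812 and 6310.3 FPKM in sIVF and 3399.9 and 4264 FPKM in IVF, and its neighbour Omt2b was 2532 and 3017 FPKM in WT, 4185 and 4135 FPKM in sIVF and 2872 and 3615 FPKM in IVF. The ribosomal gene Rpl41 was 2829 and 2594 FPKM in WT and 4212 and 3807 FPKM in IVF (log2 fold change 0.56, SE 0.13, limma adjusted p = 0.145). Calm2, a calmodulin gene, was 2958 and 2921 FPKM in WT and 2313 and 2569 FPKM in IVF and Cks2, a partner of the cell cycle kinase, 2722 and 2446 FPKM in WT and 3024 and 3102 FPKM in IVF.

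Replicates differed less at higher levels. Between 1 and 5 FPKM the median absolute log2 difference was 0.81 between the WT libraries and 0.71 between the IVF libraries, while at 100 FPKM and over it was 0.21 and 0.24. The median absolute fold change of IVF against WT went from 0.60 to 0.37 over the same classes. At an unadjusted p under 0.05 stood 216 of 3621 loci of the lowest class (5.97%), 269 of 2496 between 5 and 20 FPKM (10.8%), 312 of 1541 between 20 and 100 FPKM (20.2%) and 227 of 588 at 100 FPKM and over (38.6%), against 12.4% in all. Of the 21 loci that passed with the filter of 5 FPKM 16 were in the highest class and 5 in the next. At 1 FPKM, 2 standard deviations of counting error came to between 28.7% and 32.6% of the value. Differences within that error were not detectable there at this depth. Larger ones could also be missed, since the median SE of a fold change at 1 to 5 FPKM was 0.79 on the log2 scale.

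**Figure D4:**
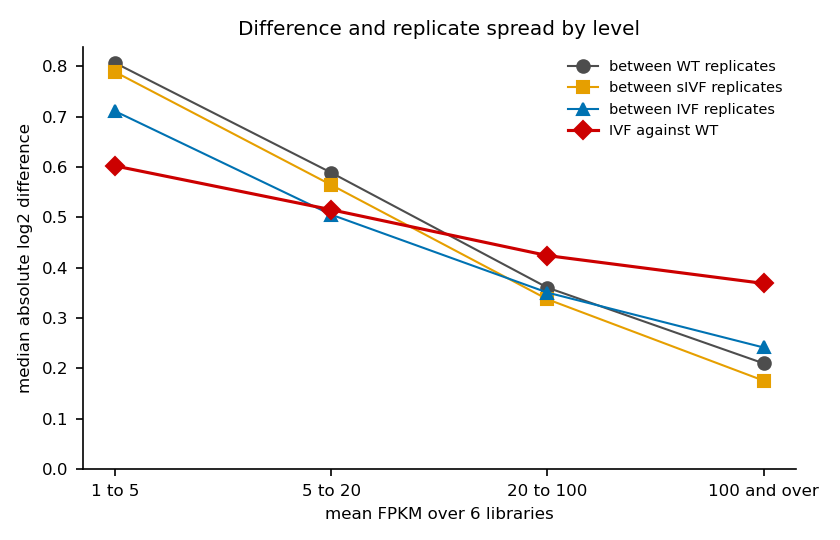
Median absolute log2 difference (vertical) between the 2 libraries of each group and between the means of IVF and WT, in 4 classes of mean FPKM (horizontal). The difference between IVF and WT, which averages 2 libraries a side and so varies less than a difference of single libraries, lies under the replicate lines at 1 to 5 FPKM (0.60 against 0.71 to 0.81) and over them at 100 FPKM and more (0.37 against 0.18 to 0.24).

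Short loci stood higher in IVF at their median. The 566 loci higher at an unadjusted p under 0.05 had a median span of 10028 bases and the 458 lower ones 19014 bases, against 19632 over all loci, and at 100 FPKM and over the medians were 3566, 13122 and 7146 bases. In 10 equal classes of span the median log2 fold change was 0.26 in the shortest and -0.05 in the eighth. In the shortest class 29.1% of loci lay wholly above WT and 11.8% wholly below. The slope was not shared by all pairs of libraries. The shortest class stood at 0.31 for IVF replicate 1 against WT replicate 1, at 0.39 against WT replicate 2, at 0.17 for IVF replicate 2 against WT replicate 2 and at 0.00 for IVF replicate 2 against WT replicate 1. Histone genes, ribosomal proteins and respiratory subunits are short loci. The part of span in their values was not tested apart from a fit with each library's trend on transcript length removed. That length was implied by the deposited confidence bounds and not taken from an annotation, and its medians in 10 equal classes reached 16815 bases. In that fit the median was 0.41 for replication-dependent histones, 0.06 for cytosolic ribosomal proteins and 0.10 for oxidative phosphorylation. By chromosome the median ran from -0.10 on chromosome 1 to 0.26 on chromosome 7.

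**Figure D5:**
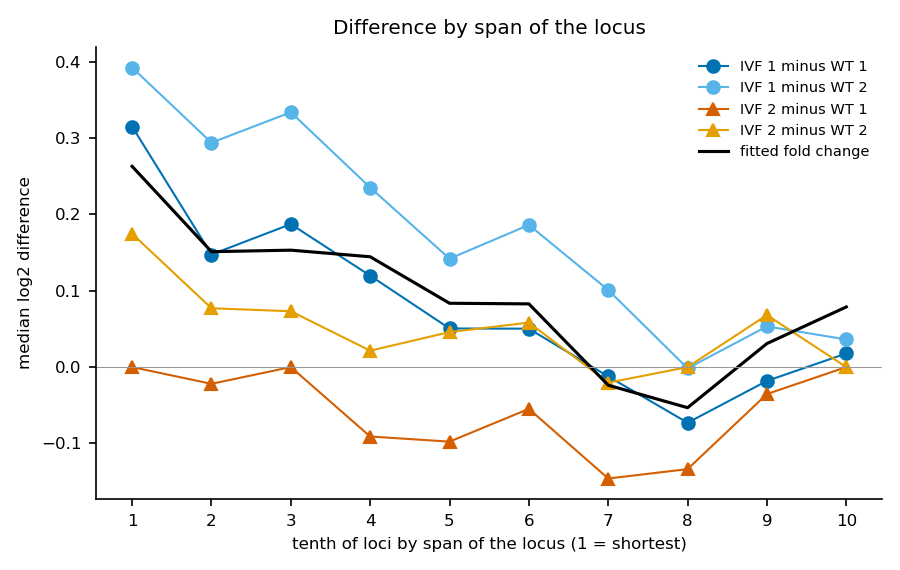
Median log2 difference (vertical) in 10 equal classes of loci by span (horizontal, 1 is the shortest) for each pair of an IVF and a WT library and for the fitted fold change in black. The fitted value goes from 0.26 in the shortest class to -0.05 in the eighth, while IVF replicate 2 minus WT replicate 1 is 0.00 in the shortest.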

How the data were processed

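RNA was measured in 6 libraries of 2-cell embryos, 2 each labelled WT, sIVF and IVF. Per the labels' protocols, cDNA was made from lysates, amplified, fragmented and sequenced in pairs, with no molecular identifiers named. The authors deposited 1 table per library with an FPKM for each of 24708 loci, per the file headers. Per the submitters' processing notes the tools included Cufflinks 2.2.1, HISAT2 2.1.0 and Cuffdiff, with no roles given, and the build was mm9. The annotation is not given in the sources used here. Amplification before fragmentation and scaling by length bear on short and long genes differently, and FPKM is relative, so a level depends on all others in the library. Depth, and the transcript length of the fit with a length trend removed, were implied from the deposited confidence bounds. The bounds were taken as 2 standard deviations of counting error, and such error does not cover amplification.

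From these values log2(FPKM + 1) was computed, loci with a mean under 1 FPKM over the 6 libraries were left out, and the 3 groups were fitted with limma 3.58.1 in R 4.3.3 (intensity trend, 3 residual degrees of freedom), with Benjamini-Hochberg adjustment over 8246 loci. A fold change is on the log2(FPKM + 1) scale, which understates changes of low genes. The fit was tested on simulated data. With 2 libraries a group, a locus that did not pass cannot be taken as unchanged. "Wholly above" or "below" means that both IVF libraries lay beyond both WT libraries. List members are 1 locus per symbol, and lists were described without a test. The members and lists were chosen with earlier results of these data known. The text names the loci that passed at either filter, Fzr1, the 12 of smallest p in each direction without overlap, the 10 largest fold changes in each direction at 20 FPKM or more, the 2 members of smallest p in each list and the 10 most abundant loci. Predicted genes and repeated symbols could be left unnamed. One gene that the rule names is not reported here. Serf2, Serinc4, Hist1h2ac, Hist2h2aa1, H3f3b, Zscan4f, Gdf9, Rps29, Rps24, Atp5g1, Cox8a, Eif4e, Eif2a and Anapc7 were named after their values were seen. Alternatives were the pseudocount, filter, scaling, variance model, replicate block and leaving out each library. Promoters were matched by symbol to RefSeq (GRCm38.p6).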

Additional observations from a re-analysis of the deposited data

How the results depend on the processing

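The number of loci that passed depended on the setting. Genes higher in IVF numbered 0 with a pseudocount of 0.1, with no filter on low values, with the 4 IVF and WT libraries alone, with quantile normalization, with the transcript length trend removed and with no intensity trend, and 0 to 0 without any 1 library, in limma. In these fits 678 to 1341 loci stood at an unadjusted p under 0.05, and 678 to 1000 without 1 library, the lowest without WT replicate 2. They numbered 12 higher and 9 lower with the filter of 5 FPKM, where fewer loci were tested, and 17 higher and 4 lower with upper-quartile scaling, which moved the median of all loci from 0.09 to 0.24. Alternatives combined with the filter of 5 FPKM were chosen after seeing the data. There 5 loci were lower with a pseudocount of 0.1, 49 were higher with upper-quartile scaling, 21 were lower with the length trend removed, and 0 were higher and 0 lower with no intensity trend. Without each library in turn the counts were 0 to 0 higher and 0 to 0 lower, with a smallest adjusted p of 0.0781 to 0.299. The cause was not tested. All 21 loci kept their direction in each of these 12 fits. They were picked by p from the same libraries, with both IVF libraries beyond both WT libraries, so this is not independent evidence.

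Of 122 named loci 120 kept their direction in every alternative. Most were named for a small p or a large fold change in these same libraries, so their direction was partly fixed by that choice. The 2 that did not keep it, Dppa5a and Map1lc3b, were named for their level. The log2 fold change of Dppa5a was -0.098 with the length trend removed and ran from -0.070 (without WT replicate 2) to 0.070 without 1 library, with -0.047 without IVF replicate 2. The log2 fold change of Map1lc3b was -0.036 with quantile normalization and ran from -0.056 (without WT replicate 1) to 0.32 without 1 library, with -0.040 without IVF replicate 2. Of 38 lists 13 kept the sign of their median throughout. No batch is labelled, and the replicate numbers were not used as pairs in the main fit. The deviations of same-numbered IVF and WT libraries correlated at 0.07. With 2 libraries a group this cannot settle whether same-numbered libraries were handled together. With the replicate block 1 locus was higher and 0 lower, with 1062 at an unadjusted p under 0.05, and with the filter of 5 FPKM 16 were higher and 12 lower.

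With 2 libraries a group and replicates that differ by a median of 0.81 on the log2 scale at 1 to 5 FPKM, low genes were poorly resolved.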
